A study of Mus musculus with 115 samples.

Results

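Plasma cells are the antibody-secreting end stage of the B cell lineage, and 8 genes that mark or drive that stage were followed across mammary fat pads. The members were taken by name: Jchain, Mzb1, Sdc1, Xbp1, Prdm1, Tnfrsf17, Derl3 and Irf4, each read by 1 probe set, out of 18772 genes with a probe set of their own. The samples were mammary fat pads of 115 distinct untreated female mice aged 8 weeks. Each mouse came from mating hybrids of FVB/N, a laboratory strain, and Spret/Ei, a Mus spretus strain, back to FVB/N, so the mice differed in genotype although none was treated. By the labels there were 3 lymph clusters with 44, 61 and 10 mice (clusters 1 to 3), and 93 arrays were on array plate 1 and 22 on plate 2. What a lymph cluster rests on is not stated, nor whether the lymph node of the pad was kept. Of the markers of the labelled tissue, 16 of 16 white adipocyte genes and 18 of 20 luminal epithelium genes were brighter than the median probe set. So were 18 of 20 B cell genes, 13 of 15 T cell genes and 12 of 13 macrophage genes. Brightness depends on the probes, so these counts alone do not show which cells the pads held. Values are on the log2 scale from 1 array per mouse, on which a difference of 1 is a doubling.

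Differentiation of an activated B cell into a plasma cell is driven by the transcription factors Irf4, Prdm1 (Blimp-1) and Xbp1. Prdm1 shuts down the B cell programme, and Xbp1 widens the endoplasmic reticulum so that large amounts of antibody can be folded. Mzb1 and Derl3 act in that compartment, Mzb1 as a co-chaperone of antibody assembly and Derl3 in the removal of misfolded protein. Jchain joins IgA and IgM into polymers, Tnfrsf17 (BCMA) is a survival receptor for the ligands BAFF and APRIL, and Sdc1 (CD138) is the surface proteoglycan by which plasma cells are usually sorted. Several members have other sources in a mammary pad: Sdc1 and Xbp1 are also made by epithelium, and Irf4 by adipocytes, macrophages and other lymphocytes. In bulk RNA, fewer cells of a type and less RNA per cell cannot be told apart.

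Promoter sequence was looked at because Xbp1 acts through DNA elements upstream of secretory genes, so it shows which members carry such letters. RefSeq (assembly GRCm38.p6) gave a promoter for 7 of the 8 members. The window ran from 250 bases before the start to 50 bases after it, and both strands were searched. Of these promoters, those of Derl3, Jchain and Xbp1 held a match, and the 250 bases before the start are given 5′ to 3′ on the gene's strand, with capitals marking the matches.
Derl3, chr10:75893148-75893397, plus strand: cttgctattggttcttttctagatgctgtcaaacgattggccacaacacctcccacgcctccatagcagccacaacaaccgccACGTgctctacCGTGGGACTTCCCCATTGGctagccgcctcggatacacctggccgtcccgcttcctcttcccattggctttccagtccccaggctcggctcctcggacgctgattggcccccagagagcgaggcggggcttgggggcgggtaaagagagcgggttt
Jchain, chr5:88527898-88528147, minus strand: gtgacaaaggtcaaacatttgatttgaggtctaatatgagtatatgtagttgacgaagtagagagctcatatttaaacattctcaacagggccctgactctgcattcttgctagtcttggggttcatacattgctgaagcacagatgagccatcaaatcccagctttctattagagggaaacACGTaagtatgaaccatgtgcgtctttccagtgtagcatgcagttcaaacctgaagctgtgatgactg
Xbp1, chr11:5520391-5520640, plus strand: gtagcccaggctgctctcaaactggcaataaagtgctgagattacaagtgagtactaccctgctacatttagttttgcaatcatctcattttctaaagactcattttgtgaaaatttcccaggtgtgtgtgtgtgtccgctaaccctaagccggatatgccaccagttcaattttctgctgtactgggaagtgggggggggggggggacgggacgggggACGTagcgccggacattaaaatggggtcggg

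Derl3 held the endoplasmic reticulum stress element, CCAAT and CCACG with 9 bases of any kind between them, on the opposite strand in a stretch that begins 156 bases before its start. That element was found in 39 of 32544 promoters of the same length (0.12%). The letters ACGT, the core of the elements that Xbp1 is known to bind, lay 167 bases before the start of Derl3, 68 bases before that of Jchain and 31 bases before that of Xbp1. ACGT is short and was present in 31% of all promoters. The octamer ATGCAAAT, known from antibody gene promoters, was in none of the 7 promoters, against 1.75% of all. A match is a description of the letters and not of a bound site.

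The members differed in how much they varied from mouse to mouse. Jchain varied most: its lowest value was 4.61, its median 6.31 and its highest 9.09, a 22.3-fold range, and its SD of 0.818 (n = 115) lay at the 98.0th percentile of all probe sets. Sdc1 ran from 6.98 through a median of 8.20 to 9.62, with an SD of 0.533 (n = 115, 93.7th percentile). Irf4 ran from 6.85 through 7.66 to 9.40, with an SD of 0.515 (n = 115, 93.0th percentile). For all 3 genes the spread was among the widest on the array. Mzb1 ran from 5.09 through 5.998 to 7.48, with an SD of 0.424 (n = 115, 87.2nd percentile). Derl3 ran from 5.21 through 5.80 to 7.11, with an SD of 0.365 (n = 115, 80.8th percentile).

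The remaining members varied less. Tnfrsf17 lay between 4.86 and 6.49 with a median of 5.48, and its SD was 0.316 (n = 115, 73.0th percentile). Prdm1 lay between 5.71 and 6.98 with a median of 6.19, and its SD was 0.262 (n = 115, 59.2nd percentile). Xbp1 was bright and nearly even across mice, between 10.49 and 11.72 with a median of 11.14 and an SD of 0.220 (n = 115, 41.1st percentile). The means of Mzb1, Prdm1, Tnfrsf17 and Derl3 lay below that of the median probe set (6.32), a range in which arrays are known to understate differences. Brightness depends on the probes, so it does not rank the members by abundance.

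**Figure D1:**
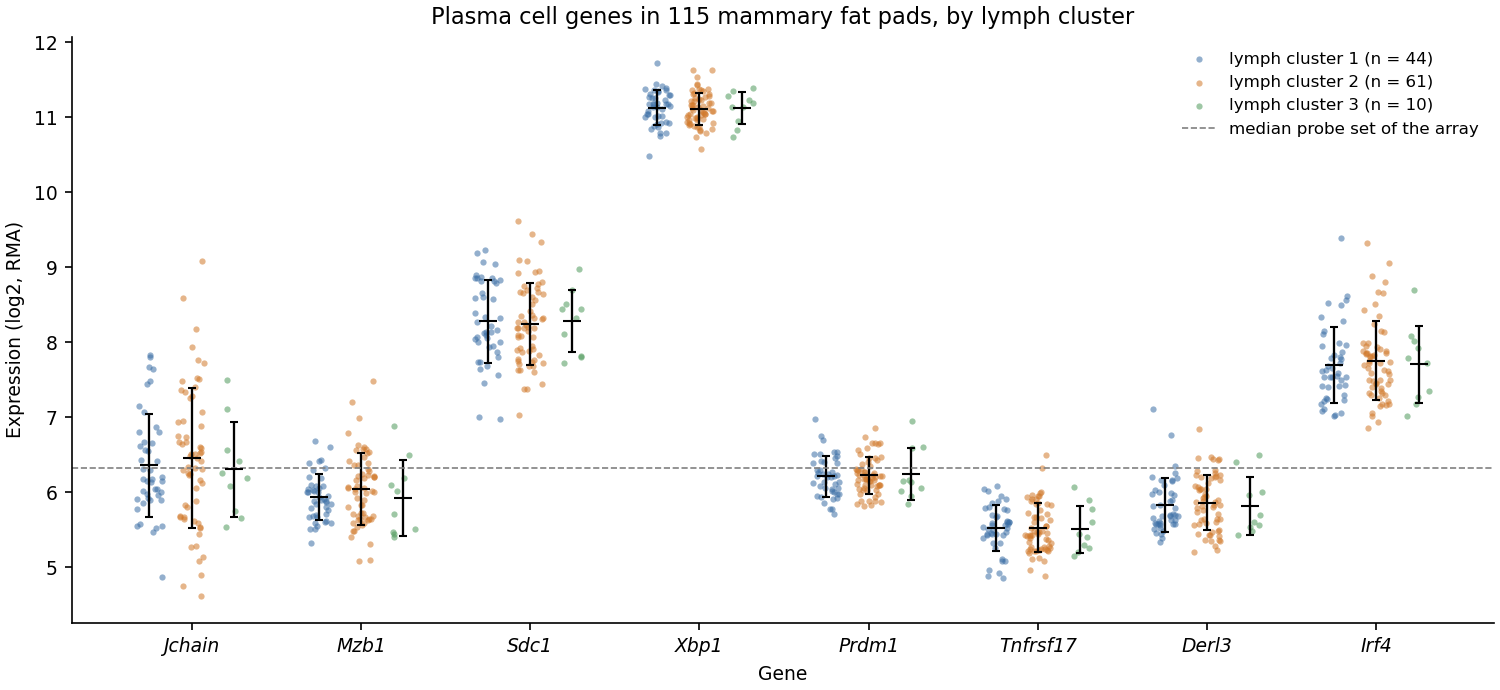
Expression of the 8 genes (log2, y axis) in each mouse, by lymph cluster; each point is 1 mouse, and bars give the mean ± SD of the cluster. Within each gene the 3 clusters overlap almost entirely, Jchain spreads from 4.61 to 9.09 and Xbp1 stays between 10.49 and 11.72; heights of different genes are not comparable, since each has its own probes.

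The levels did not separate the lymph clusters. Jchain ran from 4.87 through a median of 6.18 to 7.83 in cluster 1, from 4.61 through 6.46 to 9.09 in cluster 2 and from 5.53 through 6.22 to 7.50 in cluster 3. Its 4 highest values were all in cluster 2, but the 3 ranges overlapped over most of their length. Mzb1 ran from 5.32 through 5.91 to 6.69 in cluster 1, from 5.09 through 6.05 to 7.48 in cluster 2 and from 5.41 through 5.87 to 6.88 in cluster 3. The difference of cluster 2 minus cluster 1 was 0.10 (95% interval -0.22 to 0.42) for Jchain and 0.12 (-0.04 to 0.28) for Mzb1, each smaller than the SD within a cluster. For Irf4 it was 0.05 (-0.15 to 0.25), for Derl3 0.04 (-0.11 to 0.18) and for Sdc1 -0.04 (-0.24 to 0.17). Cluster 3 differed from cluster 1 by -0.04 (-0.61 to 0.52) for Jchain.

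With limma, 0 of the 8 members were called at an adjusted p under 0.05 in any of the 3 cluster comparisons, and 0% of all 28204 probe sets were. At an unadjusted p under 0.05 there were 4, 1 and 1 probe sets for 2 against 1, 3 against 1 and 3 against 2, and 0 members. So few small p-values among so many probe sets are far below what that threshold passes when groups do not differ, and the cause was not tested, so these comparisons say little about the clusters. Between plates 0 members were called, against 0.0106% of probe sets, and 762 probe sets but 0 members had an unadjusted p under 0.05. That count of probe sets is also below what the threshold passes when groups do not differ. The cause was not tested, so the plate comparison says little as well. Jchain was 6.39 ± 0.803 (SD, n = 93) on plate 1 and 6.48 ± 0.892 (SD, n = 22) on plate 2. The fitted difference of plate 2 minus plate 1 was 0.09 (95% interval -0.29 to 0.48).

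Since Jchain is the member most restricted to antibody-secreting cells, the next question was which genes varied with it from mouse to mouse. Each gene's slope, its log2 change per log2 unit of Jchain, was fitted with cluster and plate in the model. Of the other 7 members only Mzb1 was called, with a slope of 0.25 (SE 0.042, adjusted p = 2.30e-05) and a partial correlation given cluster and plate of 0.50 (n = 115). The background was 0.759% of probe sets called, with 0.645% that rose and 0.113% that fell. Prdm1 had a slope of 0.08 (SE 0.030, adjusted p = 0.169) and Derl3 of 0.07 (SE 0.042, adjusted p = 0.424), neither past the threshold. Sdc1 sloped the other way, at -0.14 (SE 0.060, adjusted p = 0.230), also not called.

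The transcription factor and receptor members showed no slope on Jchain that was called. Xbp1 had a slope of -0.02 (95% interval -0.07 to 0.03), Tnfrsf17 of -0.02 (-0.09 to 0.06) and Irf4 of 0.02 (-0.10 to 0.13). The 5 mice with the most Jchain were not alike in the other members. In the mouse with the most Jchain (cluster 2, replicate 59, 9.09) Mzb1 was 7.21, rank 2 of 115, Tnfrsf17 was rank 2 at 6.33, and Xbp1 was only rank 42. In the mouse ranked 2 (cluster 2, replicate 9, 8.59) Mzb1 was the highest of all mice at 7.48, and Prdm1 was rank 3 at 6.86. In the mouse ranked 3 (cluster 2, replicate 37, 8.17) Mzb1 was rank 3 at 6.996, while Sdc1 was rank 111 at 7.38 and Xbp1 rank 107 at 10.82. In the mice ranked 4 and 5 (Jchain 7.94 and 7.83) Mzb1 was only rank 30 at 6.22 and rank 33 at 6.20, and Tnfrsf17 was rank 113 in the latter. Igha was rank 2, 4, 3, 1 and 7 in these 5 mice. The call for Mzb1 was kept without the 2 arrays farthest from the median of Jchain (slope 0.20, adjusted p = 0.0075). It was lost on the 44 mice of cluster 1 alone (slope 0.11, adjusted p = 0.488) and on the 22 arrays of plate 2 alone (0.28, adjusted p = 0.242).

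The genes most like Jchain by partial correlation were largely antibody genes. Of the 15 highest, Igkv6-23 (0.59), Igkv1-135 (0.52), Igkv10-96 (0.49) and Igkv8-30 (0.46) are variable segments of the kappa light chain. A further kappa segment had 0.53 and a heavy chain segment of the Ighv1 family 0.44. Ighg3 (0.55), Ighm (0.53), Igha (0.53) and Igkc (0.48) are constant regions. All 4 immunoglobulin constant genes that the array measured rose with Jchain, with a median slope of 0.38 against 0.00 over all probe sets. Igha, the heavy chain of the IgA that Jchain polymerises, had the steepest slope of the 4, 0.50 per unit of Jchain (SE 0.075, adjusted p = 3.41e-06). It ran from 5.93 to 10.14 across mice. Igha also had the largest SD of the 4 (0.774), and its partial correlation was below that of Ighg3. Ighm, the heavy chain of IgM, rose by 0.29 (SE 0.044, adjusted p = 3.05e-06). Immunoglobulin segments are near-identical copies of each other, so which segment a probe set reads is uncertain.

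The other genes among those 15 were not antibody genes. Rgs13 (0.56) and Gcsam (0.50) are known from germinal centre B cells, Spic (0.44) is a transcription factor of B cells and red pulp macrophages, and Cxcr2 (0.44) is a chemokine receptor of neutrophils. Rgs13 rose by 0.34 per unit of Jchain (SE 0.047, adjusted p = 6.96e-07) and Gcsam by 0.23 (SE 0.037, adjusted p = 1.54e-05). The most opposite gene was Id3, an inhibitor of E proteins, which fell by 0.16 (SE 0.037, adjusted p = 0.0092, partial correlation -0.39). Next came Ube2g2, Psmb6, Mib2, Dohh and Fntb, with correlations from -0.39 to -0.37. Ube2g2 is a ubiquitin-conjugating enzyme of endoplasmic reticulum quality control, and Psmb6 is a proteasome subunit.

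Other genes of plasma cell biology were called on Jchain in small numbers, to be read against the 0.645% of probe sets that rose. Of 16 other genes of plasma cells and their surface, 13 had slopes above 0, with a median of 0.07, and 2 rose: Tnfrsf13b (TACI), a receptor for the same ligands as Tnfrsf17, by 0.15 (SE 0.038, adjusted p = 0.0277), and Eaf2 by 0.08 (SE 0.020, adjusted p = 0.0423). Pou2af1, a B cell coactivator, had 0.20 (adjusted p = 0.0581) and Slamf7 0.17 (adjusted p = 0.0826). Of 12 niche and antibody transport genes 8 had slopes above 0 and 1 rose, Tnfsf13b (BAFF), the ligand itself, by 0.13 (SE 0.034, adjusted p = 0.0446). Of 34 genes of the secretory pathway and the unfolded protein response 0 were called, with a median slope of -0.00, and 16 of the 34 slopes were above 0. The closest to a call was Sec11c, a signal peptidase subunit, at 0.12 (SE 0.035, adjusted p = 0.0573). The calls of Tnfrsf13b, Eaf2 and Tnfsf13b were lost without the 2 arrays farthest from the median of Jchain.

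Genes of the other cell types of the pad gave few calls, to be read against the 0.759% of probe sets called on Jchain. At that share a count of 0 in lists this short says little about the cell types. None of the 20 B cell genes was called, although all 20 slopes were above 0, with a median of 0.18. The B cell antigen Ms4a1 (CD20) had the smallest p, with a slope of 0.32 (SE 0.096, adjusted p = 0.0757). Of 9 regulators of B cell identity 1 fell, Id3, and 0 rose. Of the 7 genes on the lymph node stroma list, which includes the lymphotoxin Ltb, 0 were called, with all 7 slopes above 0. None of the 15 T cell genes was called, and all 15 were above 0 with a median of 0.15. Of 14 plasmacytoid dendritic genes 1 rose, Siglech, by 0.18 (SE 0.049, adjusted p = 0.0446), and it lost that call without the 2 arrays farthest from the median. Among 20 luminal and 7 basal epithelium genes, 16 white adipocyte genes, 13 macrophage genes and 19 cell cycle genes, 0 were called. Of the adipocyte genes 0 had a slope above 0, with a median of -0.03, and of the cell cycle genes 19 of 19 had, with a median of 0.07. Slopes were above 0 for 8 of the 20 luminal, 2 of the 7 basal and 8 of the 13 macrophage genes.

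Whether these slopes differed between clusters 1 and 2 was tested in 1 model over the arrays of both. For Mzb1 the slope on Jchain was 0.20 steeper in cluster 2 (SE 0.092, unadjusted p = 0.032, adjusted p = 0.761), and for Tnfrsf17 0.18 steeper (SE 0.082, adjusted p = 0.761). Over all probe sets 0 were called (0%), and 6.47% had an unadjusted p under 0.05. A difference between the clusters was not detectable for any member.

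Each member was then used in turn as the covariate, which gave 56 ordered pairs. Of these 8 were called, 6 upward and 2 downward, and they came from 5 of the 28 pairs. Jchain and Mzb1 rose together in both directions of the fit. Mzb1 and Sdc1 moved against each other: Sdc1 fell by 0.42 per unit of Mzb1 (SE 0.11, adjusted p = 0.0027), and Mzb1 fell by 0.26 per unit of Sdc1 (SE 0.070, adjusted p = 0.0049). Sdc1 and Tnfrsf17 rose together, Tnfrsf17 by 0.17 per unit of Sdc1 (SE 0.054, adjusted p = 0.0169). Derl3 rose by 0.26 per unit of Mzb1 (SE 0.079, adjusted p = 0.0074), and Xbp1 by 0.10 per unit of Sdc1 (SE 0.038, adjusted p = 0.0486). The background differed greatly between covariates: 26.6% of probe sets were called on Mzb1, 21.3% on Tnfrsf17, 16.9% on Sdc1 and 11.1% on Xbp1. It was 3.04% on Irf4, 2.06% on Prdm1 (1.76% rose, 0.298% fell) and 0.418% on Derl3 (0.369% rose, 0.0496% fell). Apart from Mzb1 on Jchain, where 0.759% were called, every called pair had Mzb1, Sdc1 or Tnfrsf17 as covariate. Of the 7 members tested on each, 2 rose and 1 fell on Mzb1 and likewise on Sdc1, and 1 rose on Tnfrsf17. With backgrounds so high, a call on these covariates says little by itself. Whether the counts exceed the background was not tested. The calls between Sdc1 and Tnfrsf17 were lost with the mean of dim probe sets in the model (0.12 for Tnfrsf17, adjusted p = 0.122), and that of Xbp1 on Sdc1 in several settings. None of the 8 was called on cluster 1 or on plate 2 alone.

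**Figure D2:**
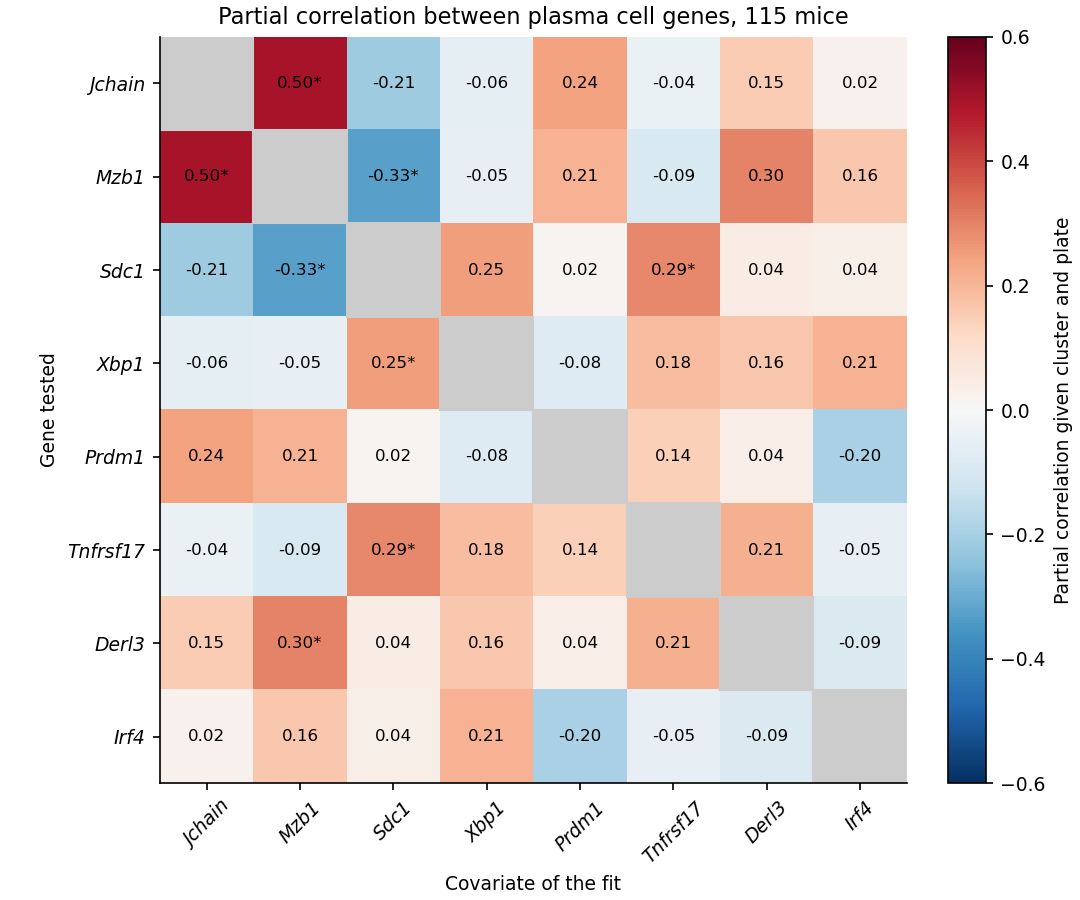
Partial correlation, given lymph cluster and array plate, between each gene tested (row) and the gene used as covariate (column) over 115 mice; an asterisk marks a slope with an adjusted p under 0.05 over all probe sets. Jchain and Mzb1 stand out at 0.50, Mzb1 and Sdc1 are opposed at -0.33, and Prdm1 and Irf4 have no asterisk.

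Mzb1 rose with lymphocyte genes of both the B and the T lineage. The genes most like it were Igkv6-23 (partial correlation 0.76), Pou2af1 (0.74), Slc9a7 (0.73) and Pcdh15 (0.72). All 20 B cell genes, all 15 T cell genes and the 4 immunoglobulin genes rose with Mzb1, against 14% of probe sets that rose. Among the B cell genes Cxcr5, the receptor that brings B cells into follicles, rose by 0.92 (adjusted p = 1.47e-14) and Ms4a1 by 1.32 (adjusted p = 1.79e-11). All 16 white adipocyte genes fell, with a median slope of -0.26, against 12.5% of probe sets that fell. Of the secretory pathway genes 3 rose and 10 fell, out of 34.

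Among 16 plasma cell surface and coactivator genes, 13 rose with Mzb1 and 2 fell. Over all probe sets 14% rose and 12.5% fell, and the lists below are to be read against the same shares. The 2 genes that fell are thus close to the background. Pou2af1 rose by 0.91 (adjusted p = 5.12e-17), Tnfrsf13b by 0.51 (adjusted p = 2.12e-10) and the integrin subunit Itga4 by 0.68 (adjusted p = 1.65e-09). Bmp6 fell by 0.25 (adjusted p = 0.0096) and Txndc5, a disulfide isomerase, by 0.18 (adjusted p = 0.0302). Of the 12 niche and transport genes 6 rose, among them Madcam1, the addressin of mucosal vessels (0.38, adjusted p = 4.06e-08), and Tnfsf13b (0.39, adjusted p = 8.91e-08). Fcgrt, the Fc receptor that carries IgG across cells, fell by 0.33 (adjusted p = 0.000386). T cell genes moved with Mzb1 beside the B cell genes, with a partial correlation of the list mean of 0.61 against 0.71 for the B cell mean. Of the 7 genes on the lymph node stroma list 6 rose with Mzb1, and the mean of that list had a partial correlation of 0.68 with it. That list includes the lymphotoxin Ltb, and Madcam1, which is also counted among the niche genes, so it is not independent of the other lists. The part of the lymph node in these slopes was not tested.

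**Figure D3:**
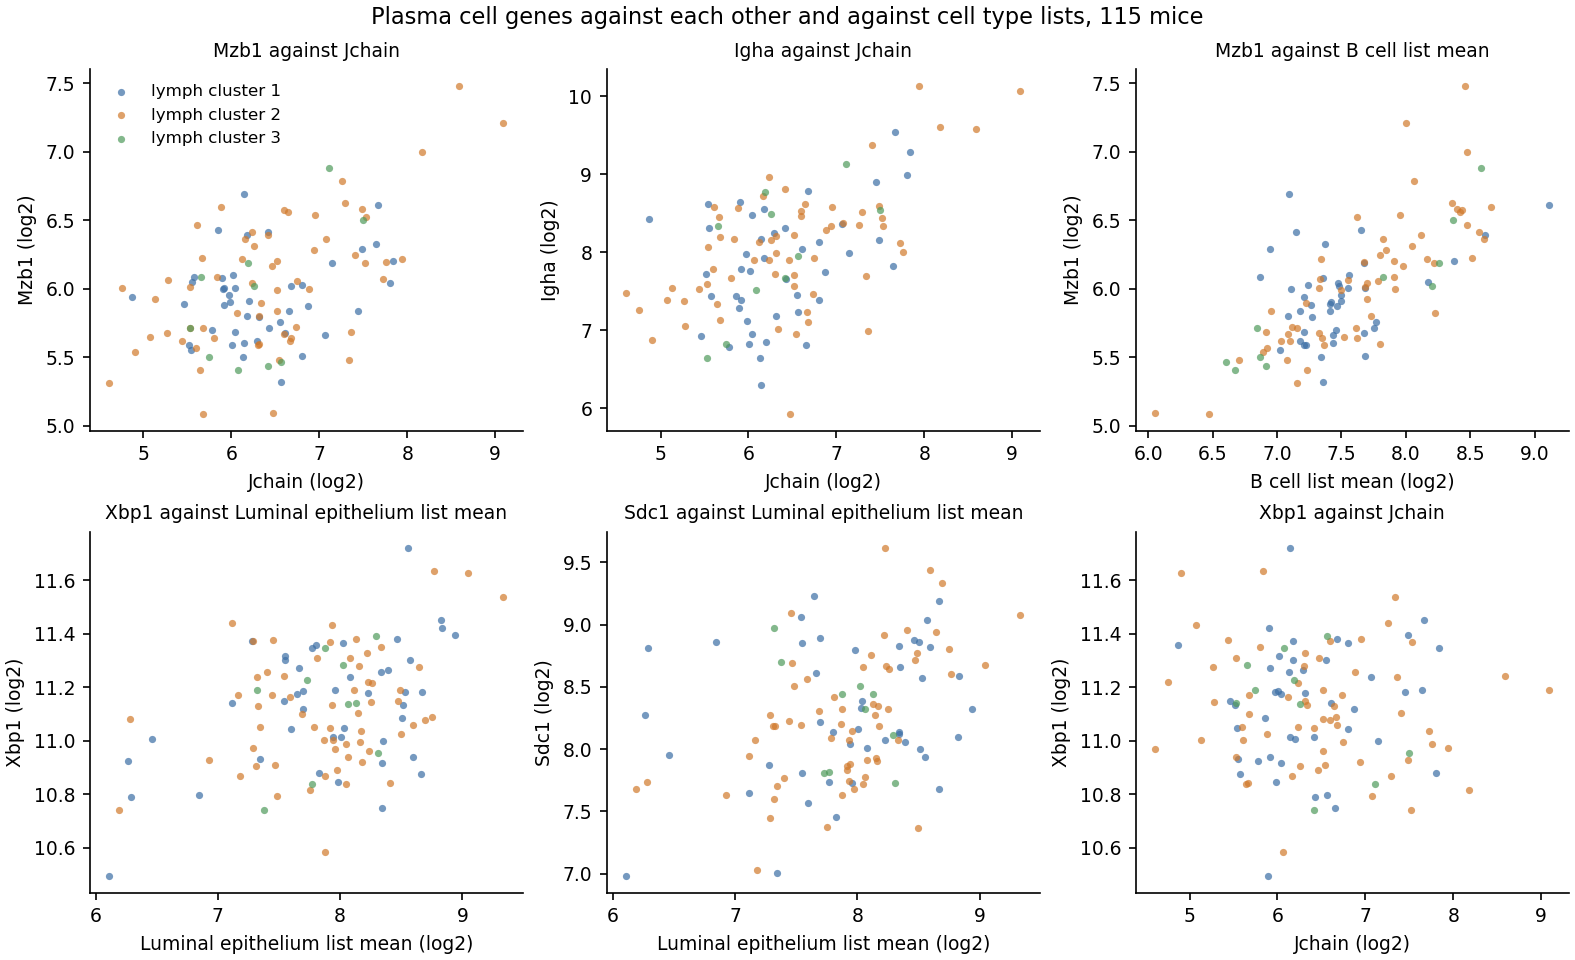
Each point is 1 mouse, coloured by lymph cluster, with all axes in log2 units. Mzb1 and Igha climb with Jchain and Mzb1 climbs with the mean of the B cell list, while Xbp1 and Sdc1 climb with the mean of the luminal epithelium list and Xbp1 has a slope of -0.02 on Jchain.

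The means of the B cell list (SD 0.550) and the luminal epithelium list (SD 0.618) both varied between pads, so the 2 means were put into 1 model. On the B cell mean 4 members were called, against 35.1% of probe sets (17.9% rose, 17.2% fell). Mzb1 rose by 0.56 per unit (SE 0.052, adjusted p = 6.69e-17), Jchain by 0.41 (SE 0.14, adjusted p = 0.0133) and Derl3 by 0.19 (SE 0.062, adjusted p = 0.0091), and Sdc1 fell by 0.23 (SE 0.085, adjusted p = 0.0268). On the luminal mean 3 members were called, against 32.5% of probe sets (14.7% rose, 17.8% fell). Sdc1 rose by 0.28 (SE 0.075, adjusted p = 0.0016), Xbp1 by 0.13 (SE 0.032, adjusted p = 0.000497) and Irf4 by 0.19 (SE 0.078, adjusted p = 0.0497). Prdm1 and Tnfrsf17 were called on neither. With both shares so high, the counts of members are near the background.

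Members called on 1 list mean had intervals around 0 on the other, apart from Sdc1. Jchain had a slope of -0.01 on the luminal mean (95% interval -0.25 to 0.23) and Mzb1 of 0.04 (-0.05 to 0.13). Xbp1 had a slope of -0.05 on the B cell mean (-0.12 to 0.02). The call of Derl3 on the B cell mean was lost without the 2 farthest arrays (0.15, adjusted p = 0.083), and that of Jchain with T cell and adipocyte means added (0.46, adjusted p = 0.248). Sdc1 lost its call on the luminal mean with the cell cycle mean in the model (0.11, adjusted p = 0.237) and its call on the B cell mean with T cell and adipocyte means (-0.03, adjusted p = 0.929), and its B cell slope was 0.22 on plate 2 alone (adjusted p = 0.726). Irf4 lost its call on the luminal mean in many settings, plate 1 alone among them (0.18, adjusted p = 0.082). On plate 2 alone none of these calls was kept, on cluster 1 alone only that of Xbp1 was, and on cluster 2 alone Xbp1 lost its call (0.09, adjusted p = 0.204).

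Sdc1, the sorting marker of plasma cells, rose with epithelial, macrophage and cell cycle genes. The genes most like it were Prrx2, a homeobox factor of mesenchyme (partial correlation 0.80), the protease inhibitor Timp1 (0.79), the calcium channel Cacna1g (0.77) and the glycosyltransferase Gcnt4 (0.76). All 19 cell cycle genes rose with Sdc1, as did 7 of 7 basal and 14 of 20 luminal epithelium genes and 10 of 13 macrophage genes, against 10.8% of probe sets that rose. Krt8, a luminal keratin, rose by 0.78 (adjusted p = 5.55e-05). Of the 34 secretory pathway genes 16 rose, led by the disulfide isomerases P4hb (0.21, adjusted p = 1.18e-08) and Pdia6 (0.24, adjusted p = 5.65e-07). Downward, 3 of 4 immunoglobulin, 11 of 20 B cell and 12 of 15 T cell genes fell, against 6.16% of probe sets. Sdc1 had a partial correlation of 0.26 with the array median and of -0.27 with the mean of dim probe sets, whose part in these list counts was not tested.

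Xbp1 rose with luminal epithelium genes, and T cell genes fell with it. Its nearest genes were the Wnt pathway factor Tcf7l2 (partial correlation 0.68), transferrin (Trf, 0.59), the proprotein convertase Pcsk5 (0.58) and the fatty acid desaturase Fads1 (0.57). Of the 20 luminal genes 17 rose with Xbp1, against 6.09% of probe sets that rose. Elf5, the factor of alveolar luminal cells, rose by 2.06 per unit of Xbp1 (adjusted p = 0.000227) and the oestrogen receptor Esr1 by 0.56 (adjusted p = 0.000272). Of the 34 secretory pathway genes, to which many known Xbp1 targets belong, 5 rose and 1 fell. Those that rose were the translocon subunit Sec61a1 (0.40, adjusted p = 0.00011), the chaperone Calr (0.28, adjusted p = 0.000173), Ern1 (0.50, adjusted p = 0.000829), Hyou1 (0.28, adjusted p = 0.0258) and Creld2 (0.31, adjusted p = 0.0289). Ern1 encodes IRE1, the enzyme that splices Xbp1 mRNA. Sec11c fell by 0.48 (adjusted p = 0.0081). Of 15 T cell genes 9 fell with Xbp1, with a median slope of -0.72, and of 20 B cell genes 4 fell, against 5.03% of probe sets that fell. None of the slopes of these 2 lists was above 0. The array values do not tell spliced from unspliced Xbp1.

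Prdm1, Irf4 and Tnfrsf17 varied with yet other genes. Nearest to Prdm1 were the cytokine Il1a (partial correlation 0.53) and Efnb2, Vangl2 and Btbd11 (0.51 each). Of the 20 B cell genes 0 were called on Prdm1, against 2.06% of probe sets. All 20 B cell slopes on Prdm1 were above 0, with a median partial correlation of 0.16 against 0.02 over all probe sets. Nearest to Irf4 were the plasma glutathione peroxidase Gpx3 (0.58), Rgs2 (0.57), Mycl (0.57) and the sialyltransferase St3gal1 (0.55). On Irf4 0 of 4 immunoglobulin and 0 of 20 B cell genes were called, against 3.04% of probe sets. At such shares, a count of 0 on Prdm1 or Irf4 says little. On Irf4 2 of 20 luminal genes rose (1.07% of probe sets rose) and 2 of 16 adipocyte genes fell (1.97% fell). Nearest to Tnfrsf17 were Fbxo10 (0.61), Mrgprf (0.60), Map3k12 (0.59) and Glt8d1 (0.57). On Tnfrsf17 10 of 13 macrophage and 9 of 16 adipocyte genes rose, 6 of 15 T cell genes fell, and 0 of 4 immunoglobulin genes were called, while 12.3% of probe sets rose and 8.99% fell. Tnfrsf17 was dim, and it had a partial correlation of 0.30 with the array median and of -0.35 with the mean of dim probe sets; their part in these slopes was not tested for single lists.

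**Figure D4:**
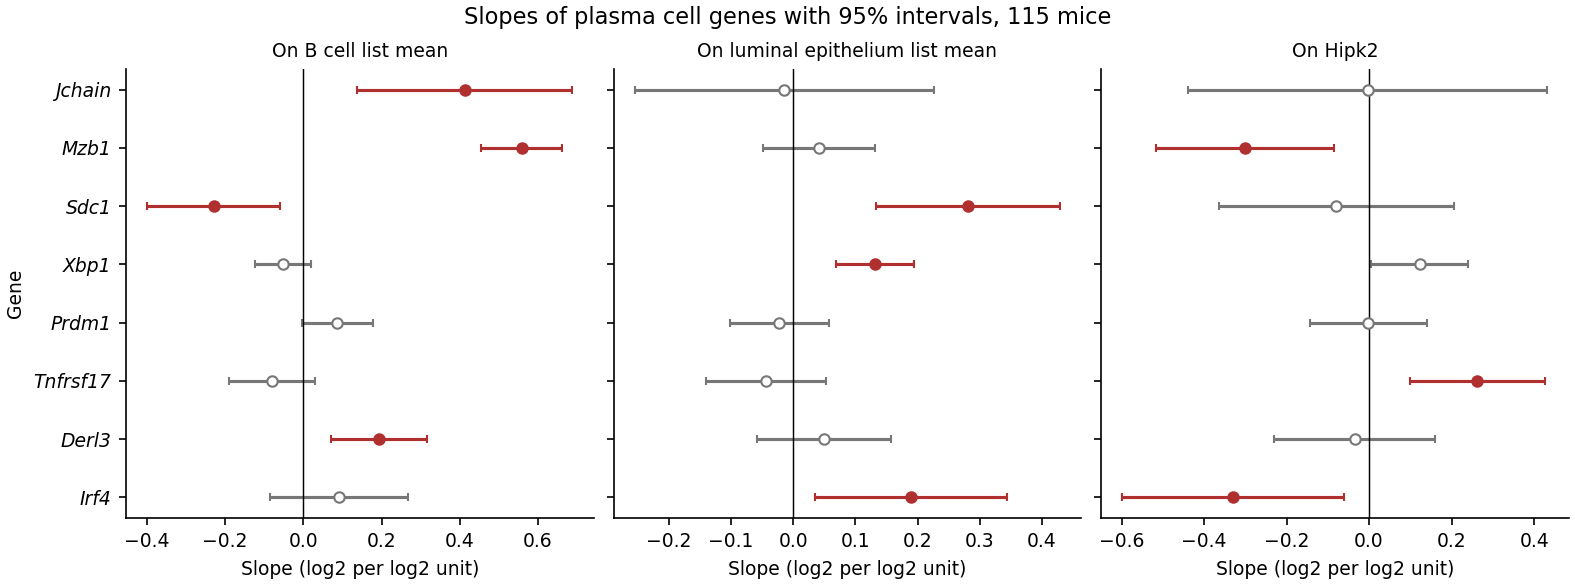
Slope of each gene (log2 per log2 unit) on the B cell list mean, the luminal epithelium list mean and Hipk2, with 95% intervals over 115 mice; filled red points have an adjusted p under 0.05. Filled points lie above 0 for Mzb1 (0.56), Jchain (0.41) and Derl3 (0.19) and below 0 for Sdc1 (-0.23) on the B cell mean, above 0 for Sdc1 (0.28), Irf4 (0.19) and Xbp1 (0.13) on the luminal mean, and above 0 for Tnfrsf17 (0.26) and below 0 for Mzb1 (-0.30) and Irf4 (-0.33) on Hipk2.

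Hipk2, the nuclear kinase in the title of the series, was the last covariate. On it 35.8% of probe sets were called (18.5% rose, 17.2% fell), and of the 8 members 3 were. Tnfrsf17 rose by 0.26 per unit of Hipk2 (SE 0.082, adjusted p = 0.0071), Mzb1 fell by 0.30 (SE 0.11, adjusted p = 0.0220) and Irf4 fell by 0.33 (SE 0.14, adjusted p = 0.0468). Jchain had a slope of -0.00 (95% interval -0.44 to 0.43). The share of members called was close to the background. Hipk2 had a partial correlation of 0.86 with the mean of the white adipocyte list, and with that mean in the model all 3 calls were lost: Tnfrsf17 had 0.11 (adjusted p = 0.783), Irf4 -0.03 (adjusted p = 0.970) and Mzb1 0.44 (adjusted p = 0.182). Xbp1 had 0.12 (SE 0.059, adjusted p = 0.0973) and passed the threshold with B cell and luminal means added (0.21, adjusted p = 0.0036).

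Many genes most like Derl3 were its neighbours on the chromosome. This was noticed after the values were seen and is given as a description. Of the 20 genes with the highest partial correlation with Derl3, 11 were on its own chromosome 10, and 8 of these within 10 Mb of it, while chromosome 10 held 4.63% of the genes considered. For the other 7 members the count on the own chromosome was 0 to 2 of 20. The nearest genes were Arid3a, a DNA-binding factor of B cells (0.52), the cell cycle regulator Fzr1 (0.49), the lipopeptide receptor Tlr2 (0.48), which is on chromosome 3, and the cation channel Trpm2 (0.47). Arid3a rose by 0.35 per unit of Derl3 (SE 0.054, adjusted p = 0.000105). Derl3 had a partial correlation of 0.27 with the array median and of -0.17 with the mean of dim probe sets.

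By distance, 16 of 252 genes within 10 Mb were called on Derl3 (6.35%), all upward, and 5 of 139 between 10 and 20 Mb (3.60%). Farther along chromosome 10, 3 of 481 were called (0.624%), and on the other chromosomes 75 of 17887 (0.419%). Among the neighbours was Gstt3, a glutathione transferase gene 0.119 Mb away, which rose by 0.93 per unit of Derl3 (adjusted p = 0.00453). Others were Trpm2 (2.01 Mb), Pwp2 (2.28 Mb), Mbd3 (4.50 Mb), Lmnb2 (5.01 Mb) and Sirt6 (5.73 Mb). Tbc1d32, on the other side at -19.9 Mb, fell by 0.25 (adjusted p = 0.0377). The count within 10 Mb was 9 on plate 1 alone, 3 on cluster 2 alone and 0 on cluster 1 or plate 2 alone. It was 7 with the arrays centred or normalised again, 25 with B cell and luminal means added and 53 with array weights. No genotypes were used here.

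**Figure D5:**
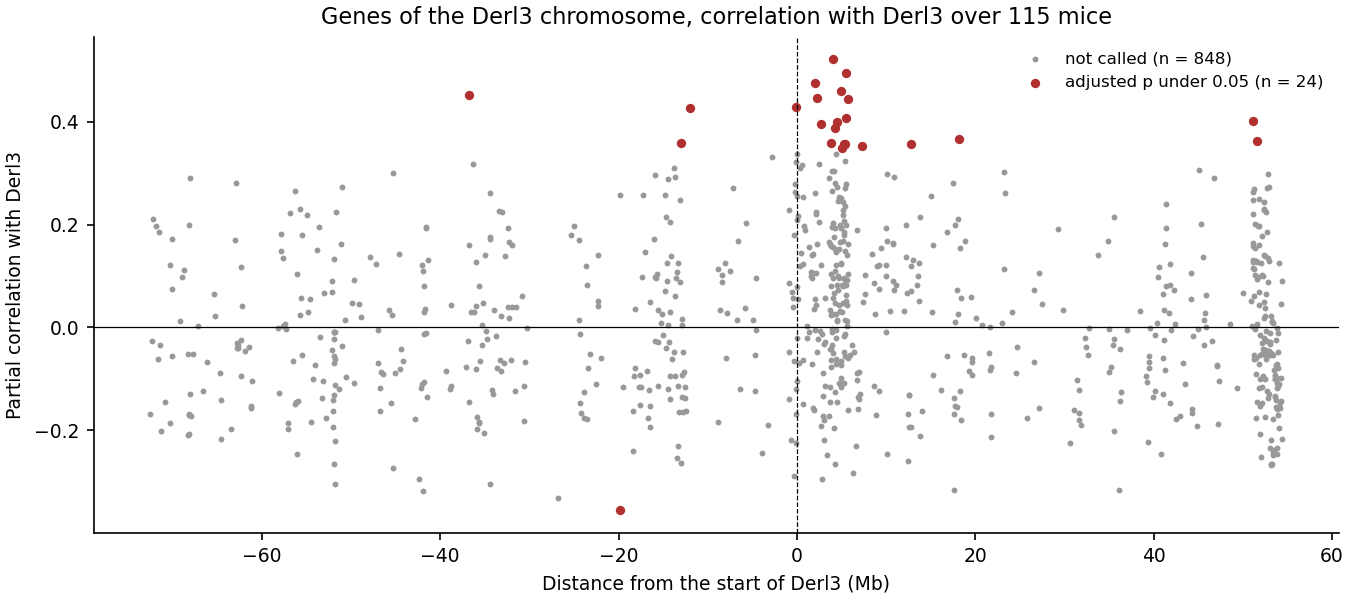
Partial correlation with Derl3 over 115 mice (y axis) for each gene of its chromosome, against distance from the start of Derl3 in Mb (x axis); red points have an adjusted p under 0.05 over all probe sets. Of the 24 called genes 16 lie within 10 Mb, nearly all of them on the right of Derl3. Within 10 Mb the right side also holds more measured genes than the left, and the sides were not compared.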

How the data were processed

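RNA of 115 fat pads was read on 1 Affymetrix array each. The deposited log2 values were made by the authors with oligo and RMA, per the submitters' processing notes, with no version or build named in what was used here. RMA is meant to put arrays on a common distribution. The medians of the deposited arrays still lay between 6.16 and 6.45, so these values did not share 1 distribution. Of 28204 probe sets, 21141 had 1 gene symbol, updated by gene identifier through RefSeq (GRCm38.p6, 21111 matched), 1881 had several and 5182 none. A gene was read by its probe set with the highest mean.

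Slopes and contrasts were fitted with limma 3.58.1 in R 4.3.3 with lymph cluster and array plate as terms, on all probe sets without a filter, and p-values were adjusted by Benjamini-Hochberg over all of them. A call was an adjusted p under 0.05. Simulated data with independent noise were used for cluster 2 minus 1 and for the slopes on Jchain, Hipk2 and the 2 list means. The Jchain slope difference between clusters was simulated too. Effects of 0.25 were recovered in 45.6% of cases on Hipk2 and 47% for the slope difference. For the others it was 78.6% to 94.1%. Slopes on the other members and the other contrasts were not simulated. Array medians lay between 6.16 and 6.45, no array was a copy of another, and the number of arrays limits the precision. A count of probe sets or genes refers to these fits.

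The members and gene lists were chosen with earlier results of these data known. Genes named are the members, Hipk2, the 15 genes most and the 6 least like Jchain, the 4 most like each other member, and up to 4 genes of a list with the smallest p on Jchain. For list genes under Mzb1, Sdc1 and Xbp1, and for chromosome 10 genes, examples were chosen after their values were seen. Predicted and RIKEN genes were not named. Alternatives split plates and clusters, dropped the plate term or dim probe sets, normalised or centred again, weighted arrays, changed the moderation, used ranks, left out the 2 farthest arrays or added list means. Those with the mean of dim probe sets or the cell cycle mean were chosen after seeing the data. Figures were drawn with matplotlib.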

Additional observations from a re-analysis of the deposited data

How the results depend on the processing

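Of 2364 values of single genes computed under the alternatives, 590 belonged to calls: 431 kept direction and call, 157 lost the call and 2 changed sign. Of the 1774 that belonged to genes not called, 34 gained a call, and 173 changed sign without a call in either fit. The changes of sign were those of Mzb1 on Hipk2 with the white adipocyte mean (0.4368) and of Sdc1 on the B cell mean on plate 2 alone (0.2196), neither called there. On plate 2 alone (22 arrays) calls numbered 1 for cluster 3 against 1, 0 on Jchain, 920 on Hipk2, 2393 on the B cell mean and 620 on the luminal mean, with 0 members, 0 pairs of members and 0 genes near Derl3. On plate 1 alone they were 82 on Jchain and 9 near Derl3. On cluster 1 alone they were 12 on Jchain, 4891 on Hipk2, 220 on the B cell mean and 5042 on the luminal mean, with 0, 0, 0 and 1 members, 0 pairs and 0 genes near Derl3. On cluster 2 alone they were 36 on Jchain and 5092 on the luminal mean, with 1 member on Hipk2, 2 on the B cell mean and 1 on the luminal mean, 5 ordered pairs and 3 genes near Derl3. These fits hold fewer arrays. Without dim probe sets, which removes 4 of the 8 members, called members numbered 0 on Jchain, 1 on Hipk2 and 2 on the B cell mean, with 5 ordered pairs. Array weights gave 1 call for plate, 916 on Jchain and 53 near Derl3, and ranks gave 130 on Jchain. Normalising again gave 27 for plate and 7 near Derl3, and centring gave 8 and 7. Without the 2 farthest arrays 97 probe sets were called on Jchain. With B cell and luminal means added, 76 were called on Jchain, with 5 ordered pairs and 25 genes near Derl3. With the mean of dim probe sets, chosen after seeing the data, 5 ordered pairs were called. With the white adipocyte mean, 1965 were called on Hipk2 and 0 members. With T cell and adipocyte means, 2085 were called on the B cell mean, 2 of them members, and 5017 on the luminal mean. Causes were not tested. No paired analysis was possible because the labels give no replicate numbers; replicates were numbered in accession order. Signal near background limits Mzb1, Prdm1, Tnfrsf17 and Derl3, and the lower values of Jchain.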
